A study of Homo sapiens with 12 samples.

Results

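The regions described here are places on mRNAs and other transcripts where AGO2 with the 5xA mutations was mapped and wild-type AGO2 was not, within genes that wild-type AGO2 also bound. A region of the 5xA list was called added when it shared no base on the same strand with any region of the WT list while its gene held at least 1 WT region. There were 737 such regions among 2921 5xA regions, 25.2% (95% exact binomial interval 23.7 to 26.8), and they lay in 351 genes. They were selected on their positions in both lists, so their number, their genes and their distances from WT regions are a description and were not tested. Of all 5xA regions, 67.7% lacked a WT overlap, and of the 1900 such regions inside genes, 38.8% were added regions as defined here.

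HCT116 cells, a human line established from a colorectal carcinoma, were cultured for 48 h and crosslinked with ultraviolet light at 400 mJ/cm2. RNA bound to the tagged protein was recovered with an anti-FLAG antibody by eCLIP, which sequences RNA fragments crosslinked to a protein. The 12 samples form 6 groups of 2, with input RNA and immunoprecipitated (IP) RNA for each of 3 genotypes: AGO2_KO, which lacks AGO2, FH-AGO2_WT, which has tagged wild-type AGO2, and FH-AGO2_5xA, which has the tagged mutant. The labels used here do not state whether each line was 1 clone, how the transgenes were driven or whether duplicates were separate cultures. The comparison is between 1 region list for the FH-AGO2_WT IPs and 1 for the FH-AGO2_5xA IPs, each pooled by the authors from 2 replicates. With 1 list per genotype there was no replicate error, and the depth behind each list is unknown. For positions absent from the WT list, less binding by wild-type AGO2 and lower depth therefore cannot be told apart. Regions do not report expression levels, so the cell type could not be checked by its markers: of 18 colorectal epithelial markers 1 held a WT region, of 14 fibroblast markers 1 did (COL1A1), and of 15 blood cell markers 0 did.

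Argonaute proteins carry a miRNA and bind mRNAs mainly through pairing of the miRNA seed with sites in 3' UTRs, after which GW182 proteins of the TNRC6 family recruit deadenylases. Binding of a target leads to phosphorylation of a cluster of serine and threonine residues in AGO2 by casein kinase 1, and the PP6 phosphatase with its subunit ANKRD52 removes these phosphates. In 5xA these residues are alanines, which cannot be phosphorylated. Several sites for the same or different miRNAs often lie close together on one mRNA.

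The added regions at miRNA genes are shown first, since their sequences are known. There were 3. The one in MIRLET7A1HG, the host transcript of several let-7 genes, lay on MIRLET7F1, at chr9:94176353-94176417 (plus strand, hg38), 321 bases downstream of the host's WT region. It covered all 22 bases of let-7f-5p and 9 of the 22 bases of let-7f-1-3p. The WT region lay on MIRLET7A1, at chr9:94175962-94176031, and the 5xA list held a region with the same start and end. Both mature miRNAs have the same seed, shown in capitals (bases 2 to 8), and let-7f-5p is also encoded by MIRLET7F2 elsewhere.
hsa-let-7a-5p: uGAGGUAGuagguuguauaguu
hsa-let-7f-5p: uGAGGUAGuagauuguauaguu
The other 2 lay on chromosome 19 and started within 3 bases of an annotated hairpin or mature end. In TRIM28, the gene of a corepressor of KRAB zinc finger proteins, an added region at chr19:58550285-58550375 (plus strand) covered 91 of the 92 bases of MIR6807. In PLEKHJ1 an added region at chr19:2235826-2235922 (minus strand) covered 94 of the 98 bases of MIR6789. Their mature products had 4 different seeds, none of them the let-7 seed.
hsa-miR-6807-5p: gUGAGCCAguggaauggagagg
hsa-miR-6807-3p: cACUGCAUuccugcuuggcccag
hsa-miR-6789-5p: gUAGGGGCgucccgggcgcgcggg
hsa-miR-6789-3p: cGGCGCCCgugucuccuccag
All sequences are RefSeq entries of GRCh38.p14.

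Most genes held few added regions. Of the 351 genes, 170 held 1, 80 held 2, 48 held 3 and 53 held more than 3, and these 53 genes had 263 of the 737 regions (35.7%). Protein-coding genes held 706 (95.8%), lncRNA genes 22 and pseudogenes 9. In 127 genes (36.2%) the added regions outnumbered the WT regions. The whole 5xA list was also longer, with 2921 regions against 1190 in the WT list. In 258 genes (73.5%) every WT region was also overlapped by 5xA, so that the 5xA regions there were the WT positions plus further ones. In 43 genes (12.3%) no WT region was overlapped, and the lists met in the gene but at no position. Over all WT regions inside genes, 201 of 1127 (17.8%) had no 5xA overlap. Of 648 genes in both lists 54.2% held an added region. The share went from 46.6% (41.8 to 51.4) of 438 genes with 1 WT region to 85.0% (70.2 to 94.3) of 40 genes with 4 or more, and the added regions per gene went from 0.808 to 2.73. Transcript abundance and length were not measured here, and their part in this was not tested.

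**Figure D1:**
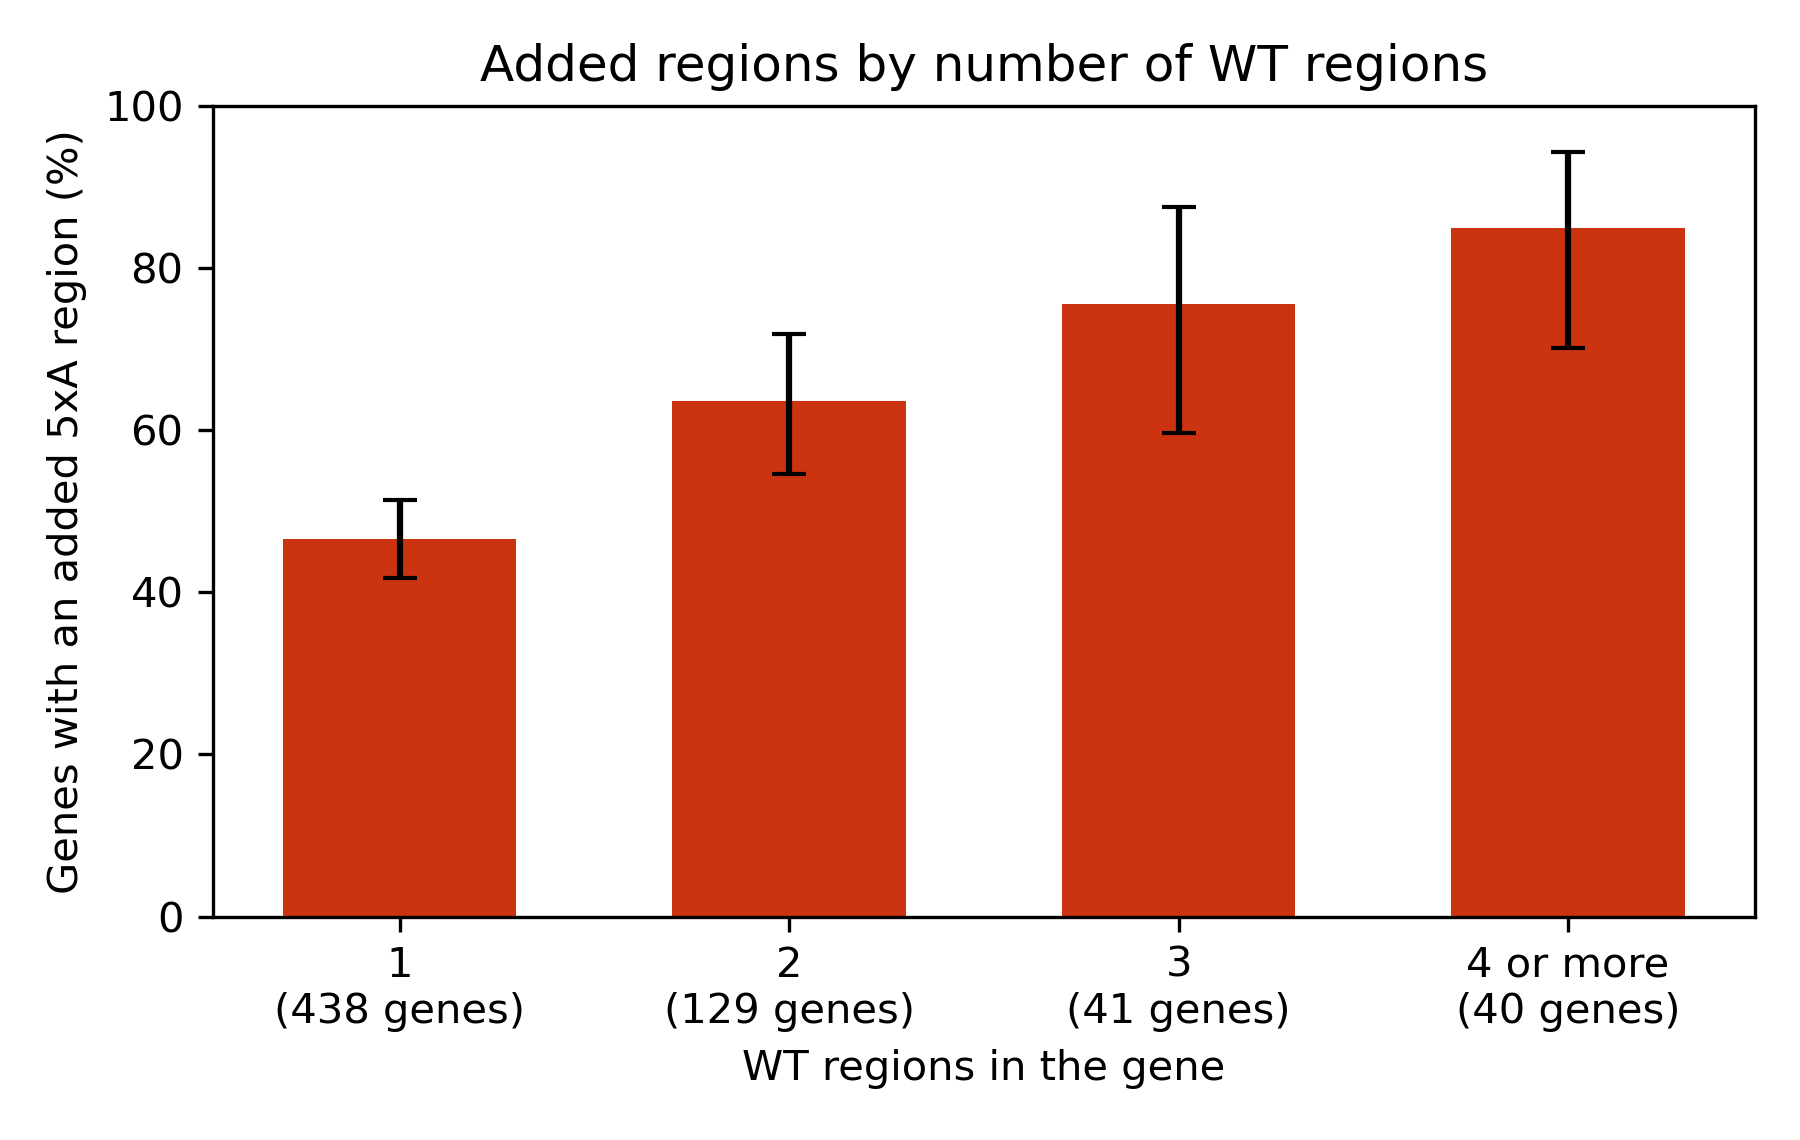
Percent of genes in both lists that held at least 1 added 5xA region (vertical axis), by the number of WT regions in the gene (horizontal axis), with 95% exact binomial intervals as bars. The share was 46.6% with 1 WT region, 63.6% with 2, 75.6% with 3 and 85.0% with 4 or more.

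The gene NFIC, which encodes a transcription factor of the nuclear factor I family, and the Polycomb gene CBX6 held the most added regions, 10 each. NFIC (chromosome 19, 3359630 to 3469217) held 2 WT regions, from 3464020 to 3464175 and from 3465450 to 3465550. Its 13 5xA regions ran from 3463025 to 3466385, with 3 on the WT positions, and the added ones covered 1651 bases against 257 bases of WT region. Of the 10 added regions, 3 lay upstream of both WT regions, 4 between them and 3 downstream. In CBX6 (chromosome 22, 38861422 to 38872216) the 4 WT regions lay 2275 to 4602 bases from the downstream gene end, and each was overlapped. Of its 10 added regions, 6 lay downstream of all WT regions, the last 121 bases from the gene end. They covered 1572 bases against 881 bases with WT.

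ZBTB20, the gene of a BTB zinc finger repressor, held 3 WT and 8 added regions. Of these, 5 lay among the WT regions near the gene end and 3 in a group 22595 to 23813 bases from it, where WT had none. ZBTB34 held 3 WT and 7 added regions, and all 7 lay between WT regions within 3862 bases of the gene end. In ZBTB7A, the gene of another factor of this family, 2 of 3 WT regions were without a 5xA overlap and 6 regions were added. One of these lay 48 bases from a WT region without overlap. ZBTB7B held 3 WT and 5 added regions. TET3, whose product oxidises 5-methylcytosine, held 10 WT regions, 9 of them overlapped, and 8 added regions. Of the 8, 2 lay at 73984931 and 73985039 on chromosome 2, near the upstream gene end, and 6 lay 28328 to 31888 bases from the downstream end of the RefSeq span, between WT regions. SKI, the gene of a SMAD corepressor, held 4 WT regions, all overlapped, and 7 added regions, 4 upstream of the WT regions and 3 between them. KMT2D, which encodes an H3K4 methyltransferase, held 4 WT and 5 added regions. ITPRIPL2 held 2 and 6, ZCCHC14 2 and 6, and the microtubule factor gene MTCL2 3 and 7.

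**Figure D2:**
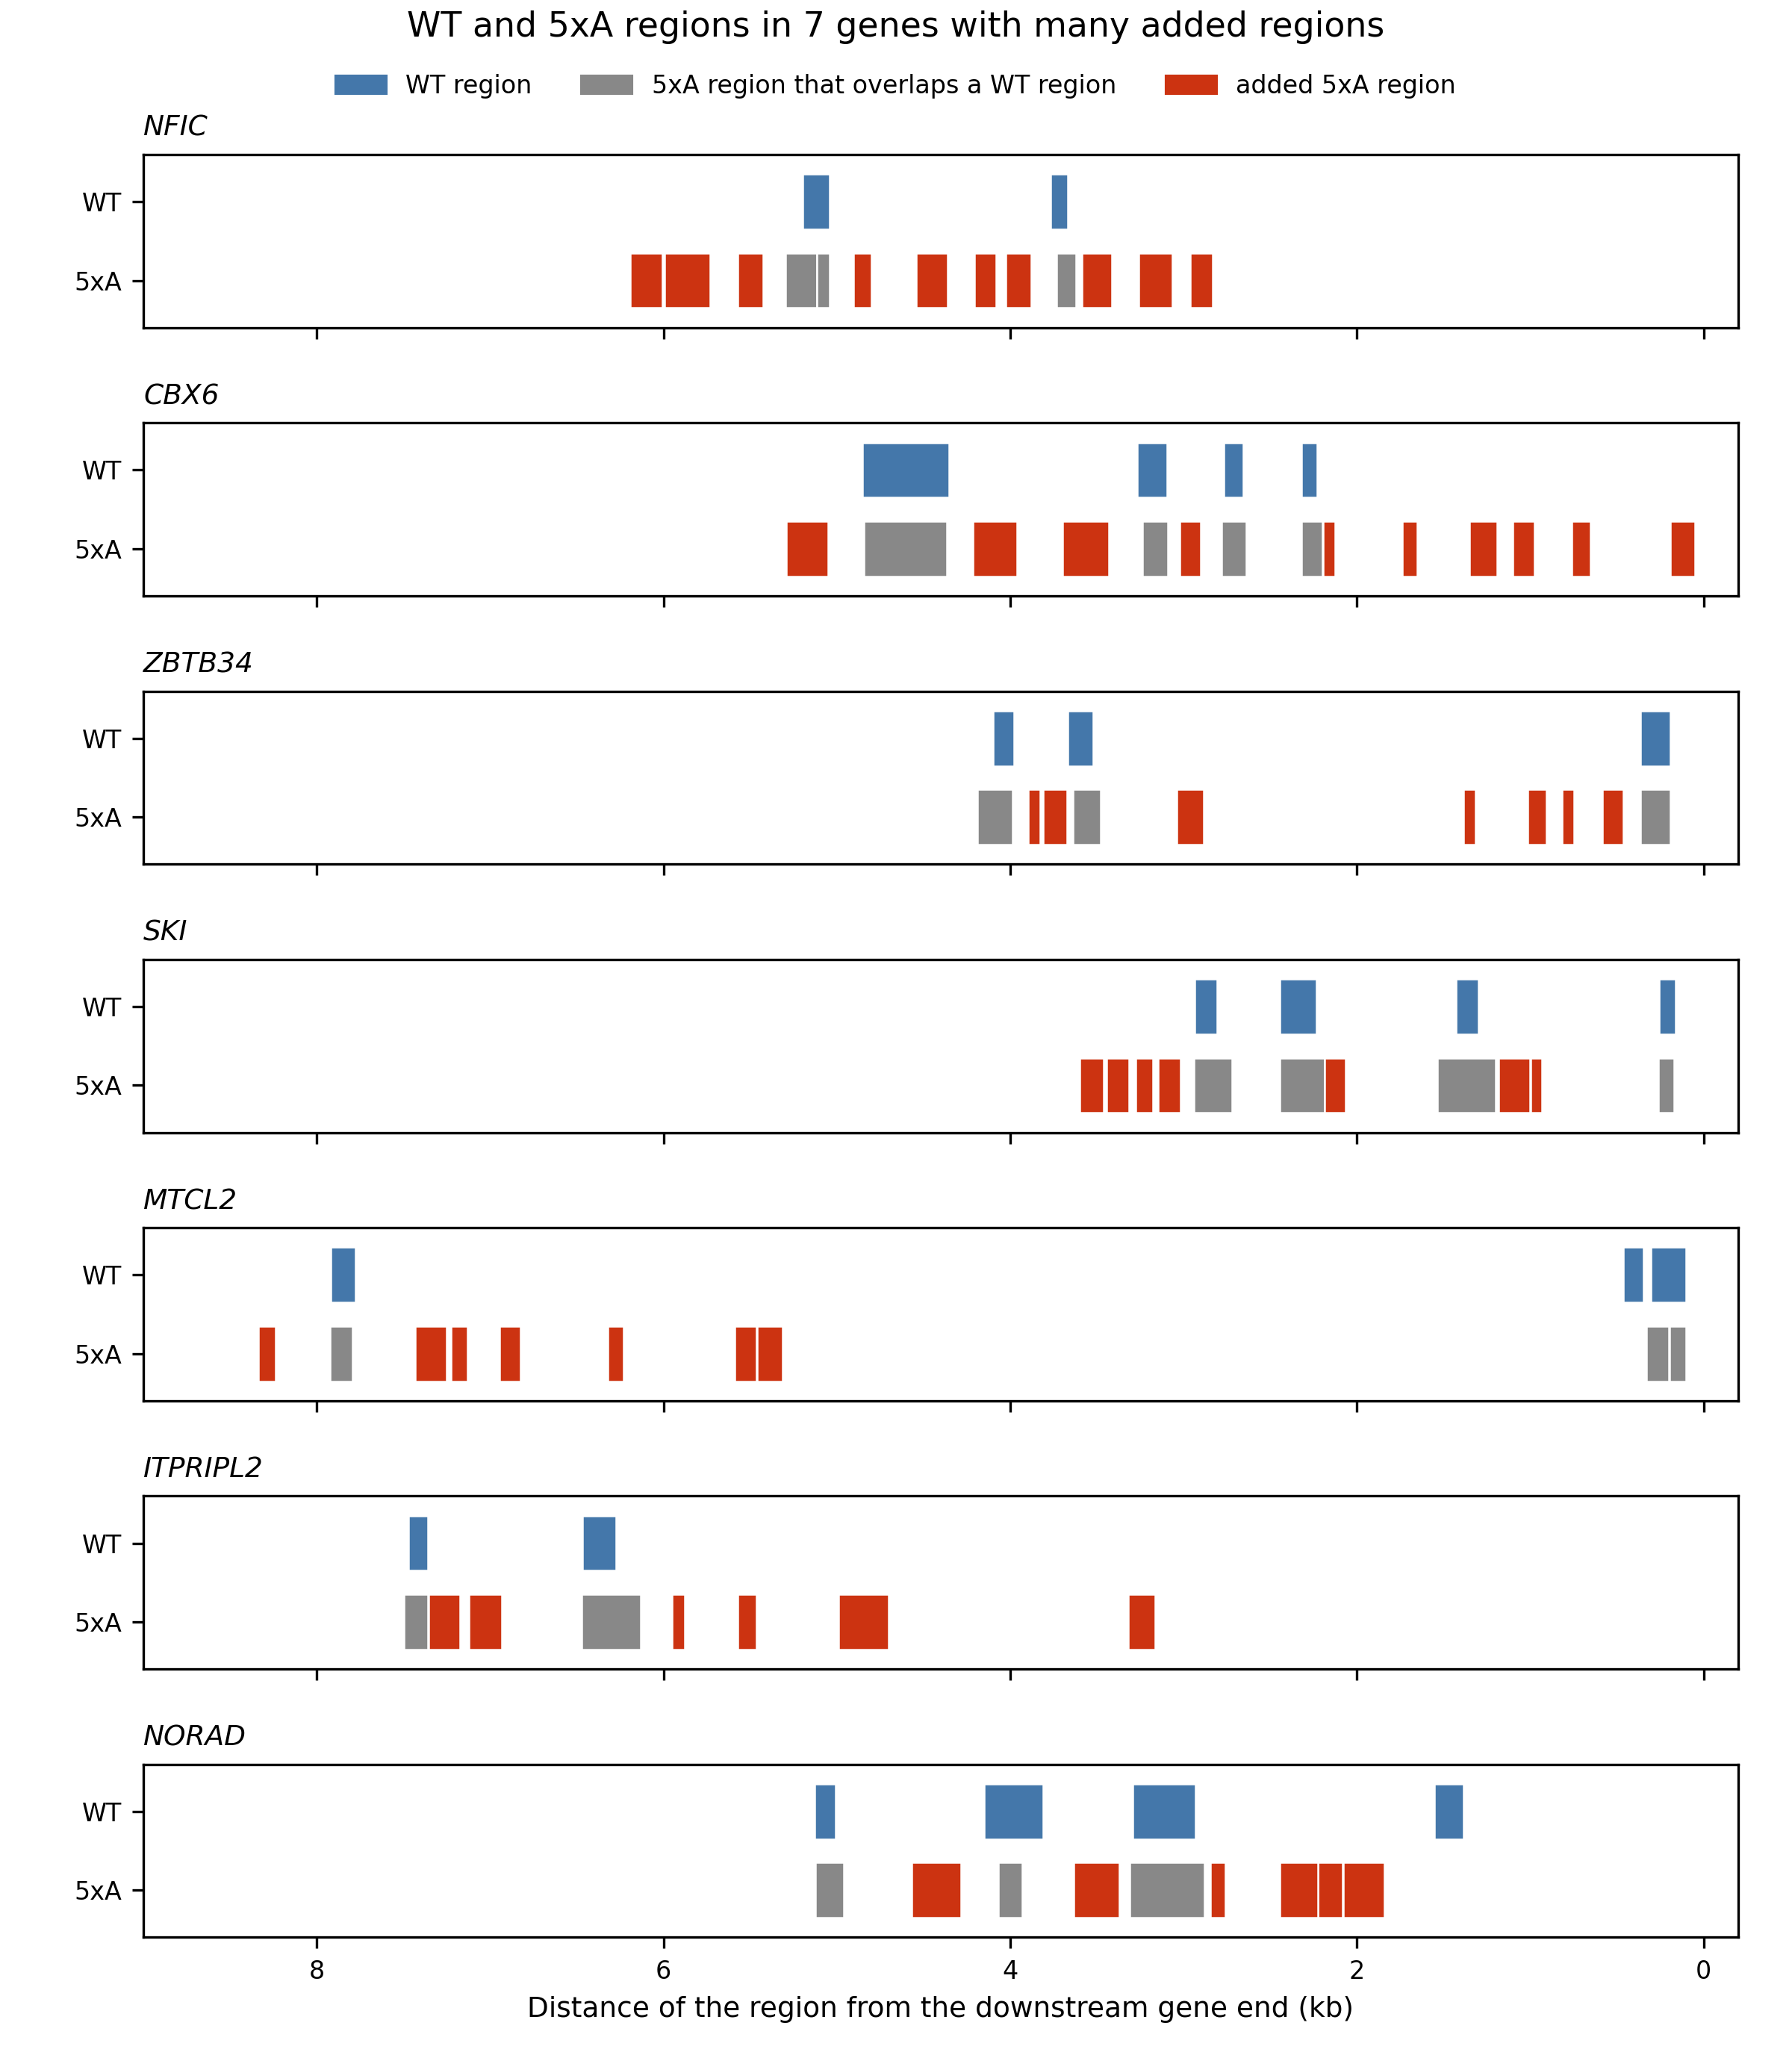
WT regions (blue, upper row), 5xA regions that overlap a WT region (grey) and added 5xA regions (red, both in the lower row) in 7 genes, drawn to scale by their distance in kb from the downstream gene end (horizontal axis, end at the right). In NFIC the 10 added regions lie on both sides of the 2 WT regions, and in ZBTB34 all 7 lie between WT regions.

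The remaining genes among the 25 with most added regions act in lipid metabolism, signalling and RNA binding, among other processes. SCD, the stearoyl-CoA desaturase gene, held 2 WT and 5 added regions. The palmitoyltransferase gene ZDHHC18 and the polarity gene PARD6B held 1 and 5 each, and the RNA-binding protein gene CELF1 2 and 5. RCC2 held 2 and 5, and the receptor gene GPRC5A 3 and 5. In DUSP7, the gene of an ERK phosphatase, the 3 WT regions lay within 762 bases of the gene end and the 5 added regions lay upstream of them all, 1008 to 7488 bases from it. MKNK2, which encodes a kinase of the translation factor eIF4E, held 9 WT and 4 added regions. IER2, an immediate early gene, held 1 and 4. Of the 77 WT regions in these 25 genes 69 were overlapped, beside 555 of 655 (84.7%) in all genes with an added region. The 25 genes held 151 of the added regions.

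The lncRNA NORAD, which binds Pumilio proteins, held 4 WT and 6 added regions on chromosome 20. All 6 lay between WT regions, from 36047458 to 36050188, while the most downstream WT region (36047003 to 36047171) was not in the 5xA list. LINC01061 held 2 WT and 6 added regions, and the pseudogene LOC729218 held 2 and 6, all 6 upstream of both WT regions. The labels do not state how reads of similar gene copies were divided, so regions in pseudogenes are uncertain. OIP5-AS1 held 1 added region.

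Added regions mostly lay close to WT regions. The median gap to the nearest WT region of the gene on the same strand was 380 bases (quartiles 131.2 and 1164, 736 regions), and 1 region in LINC01492 had no WT region on its strand. A gap of at most 50 bases was found for 87 regions (11.8%, 9.58 to 14.4), of at most 200 bases for 256 (34.8%) and of at most 1000 bases for 529 (71.9%, 68.5 to 75.1). The nearest WT region was downstream of 381 added regions and upstream of 355, so both sides were used about as often. In genes with more than 1 WT region, 151 of 381 added regions (39.6%) lay between WT regions. The 1-base rule had near cases on both sides. The IER2 region from 13154585 abutted a WT region with a gap of 0 bases, and those in FTL and CDK6 were 1 base away. Among the regions left out as shared, the smallest overlaps were 3 bases in RRBP1 and 5 bases in DOHH, and 6 regions overlapped by at most 10 bases. In addition, 188 added regions (25.5%) lay within 50 bases of another 5xA region of the gene. Some may be parts of a longer stretch, which was not tested. When regions within 50 bases were joined in each list first, there were 583 added regions.

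**Figure D3:**
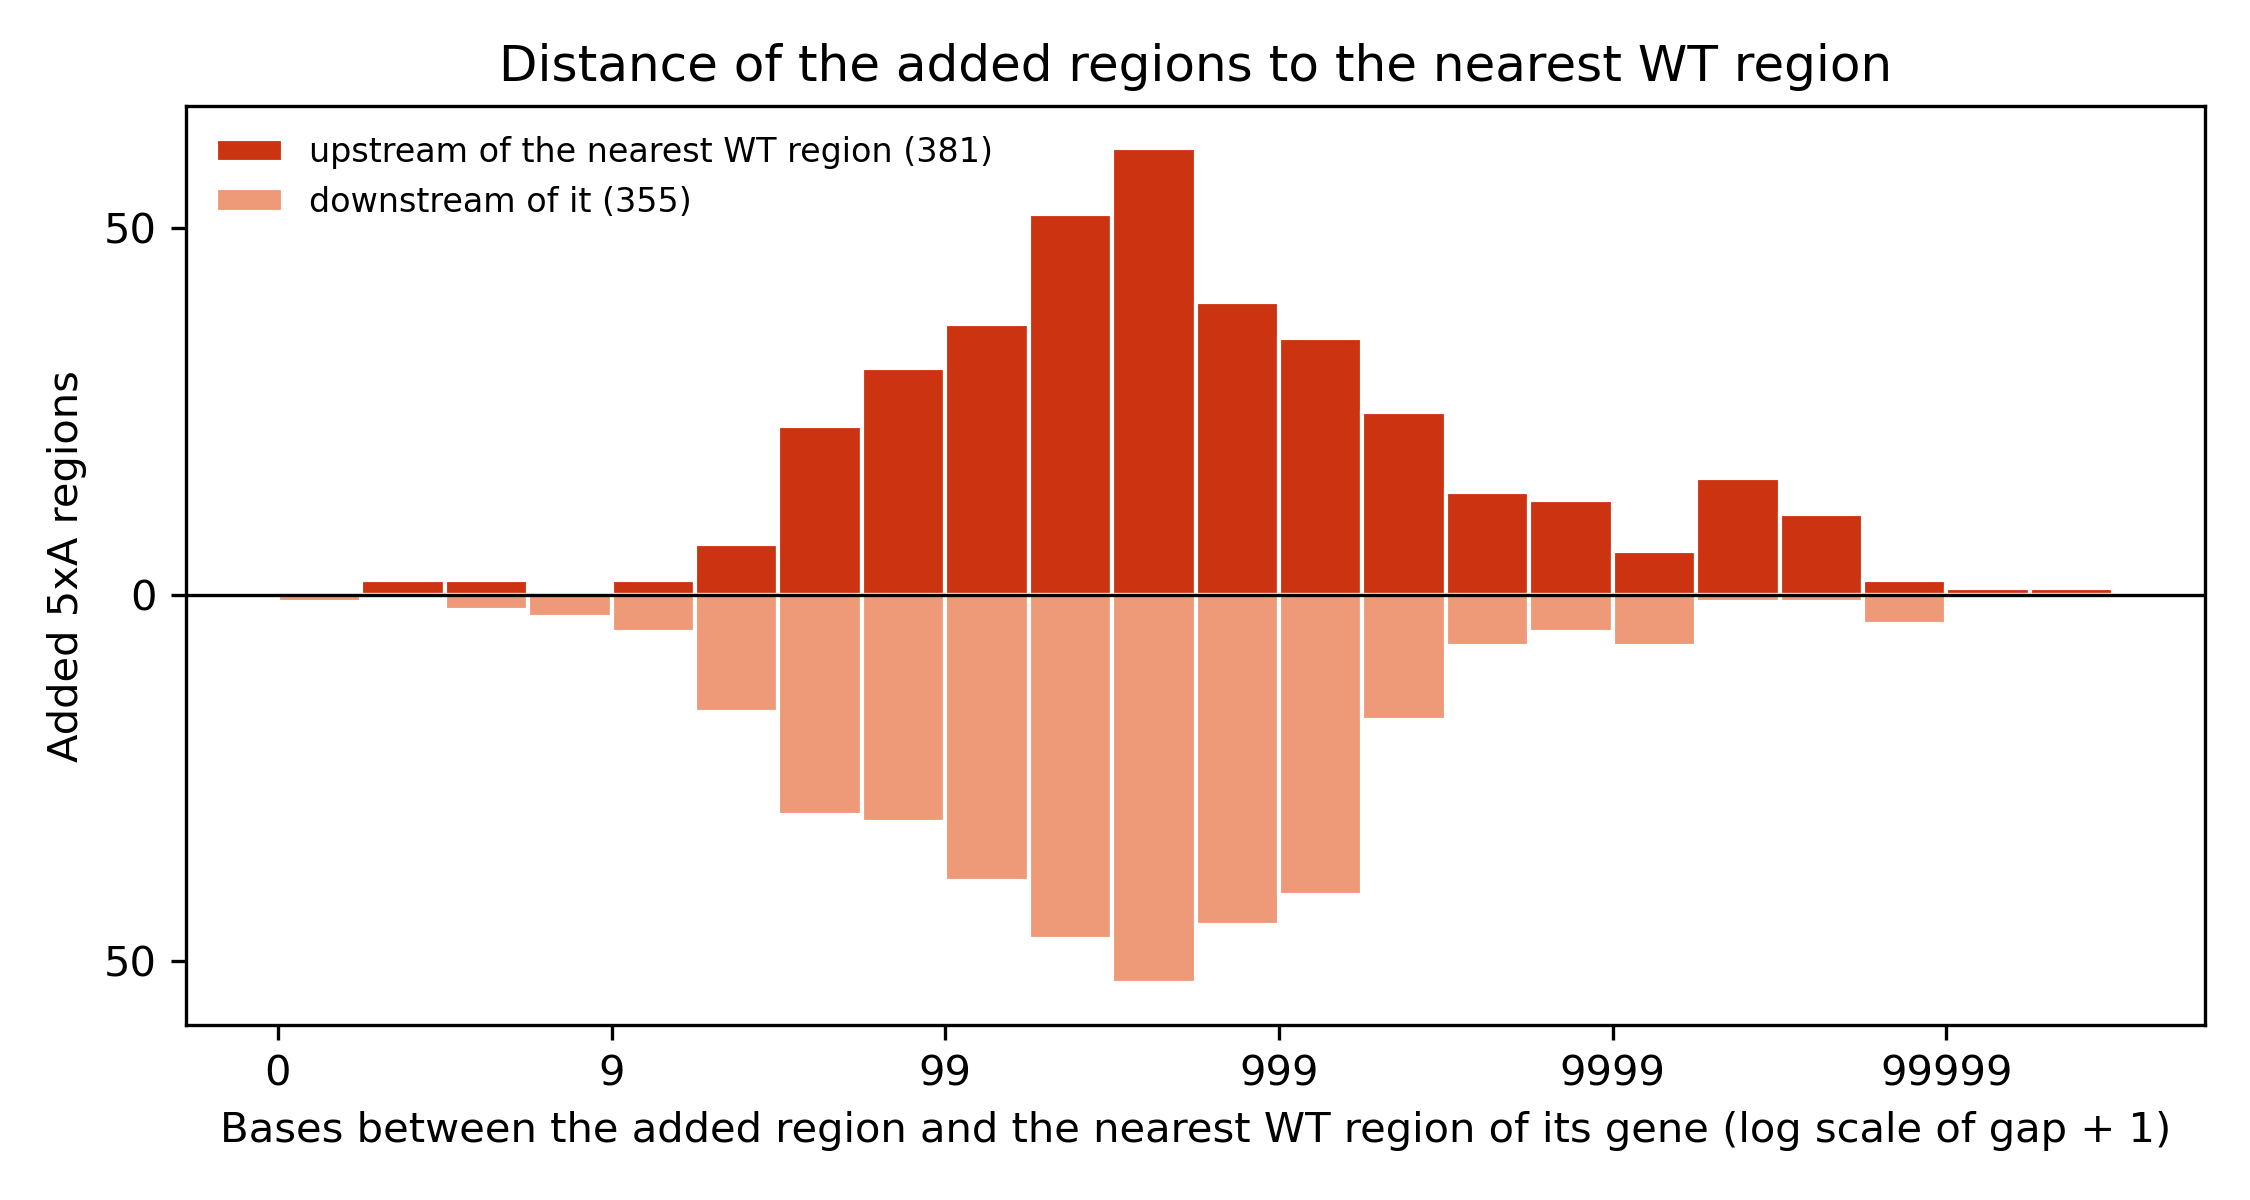
Number of added 5xA regions (vertical axis) by the bases between them and the nearest WT region of their gene (horizontal axis, log scale of the gap plus 1). Bars above 0 are the 381 added regions upstream of the WT region, bars below 0 the 355 downstream of it. Most gaps lie between about 50 and 1000 bases on both sides.

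A smaller group lay far from any WT region. A gap of over 10 kb was found for 50 regions (6.79%) in all, and 71 had a gap over 5 kb, of which 51 lay upstream and 20 downstream of the nearest WT region. In 14 protein-coding genes longer than 10 kb, 32 added regions had a midpoint in the last 5 kb while that of the nearest WT region lay farther upstream. Some of these, as in NFIC, only straddle the 5 kb limit. TP53INP1, a p53-induced regulator of autophagy and cell death, was the clearest case by number. Its 2 WT regions on chromosome 8 (minus strand) lay 15047 and 23281 bases from the gene end, both overlapped by 5xA. All 5 of its added regions lay 256 to 4590 bases from the end. All 5 also lay in the span of NDUFAF6. In B4GALT5, which encodes a galactosyltransferase, the only WT region lay 80873 bases from the end, at the upstream end of the gene. Its 4 added regions lay from 49633208 to 49636075 on chromosome 20, 313 to 3052 bases from the end. In KLF16 the WT region, not overlapped, lay 10788 bases from the end and 3 added regions lay 1245 to 2100 bases from it. EZR, the ezrin gene, had 1 WT region 53466 bases from the end, not overlapped, and 1 added region 132 bases from it.

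The reverse arrangement was found for 48 added regions in 39 genes, with the nearest WT region within 5 kb of the downstream end and the added region farther away. The largest gap, 212933 bases, was in FBXW7, the gene of a ubiquitin ligase subunit. Its WT region lay 1664 bases from the gene end. Its added region ran from 152535262 to 152535345 (chromosome 4, minus strand). It lay in a RefSeq start window of the gene, from 250 bases before to 50 bases after a start. That start lies inside the gene span, whose upstream end is at 152536092. The coactivator gene CREBBP had an added region 155337 bases from the gene end, with a gap of 153136 bases, and ARID1A, which encodes a SWI/SNF subunit, had 2, with gaps of 50117 and 84653 bases. In 82 cases both regions lay beyond 5 kb, as in TET3, MDM2 and JMJD1C, where the gap was 92799 bases, and in 418 of 580 (72.1%, 68.2 to 75.7) both lay within 5 kb of the end. These distances are to the end of the RefSeq span, which lies 27504 bases downstream of the last region of TET3 and 8804 bases downstream of that of MDM2, by their midpoints, and the transcript ends used in these cells were not measured.

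**Figure D4:**
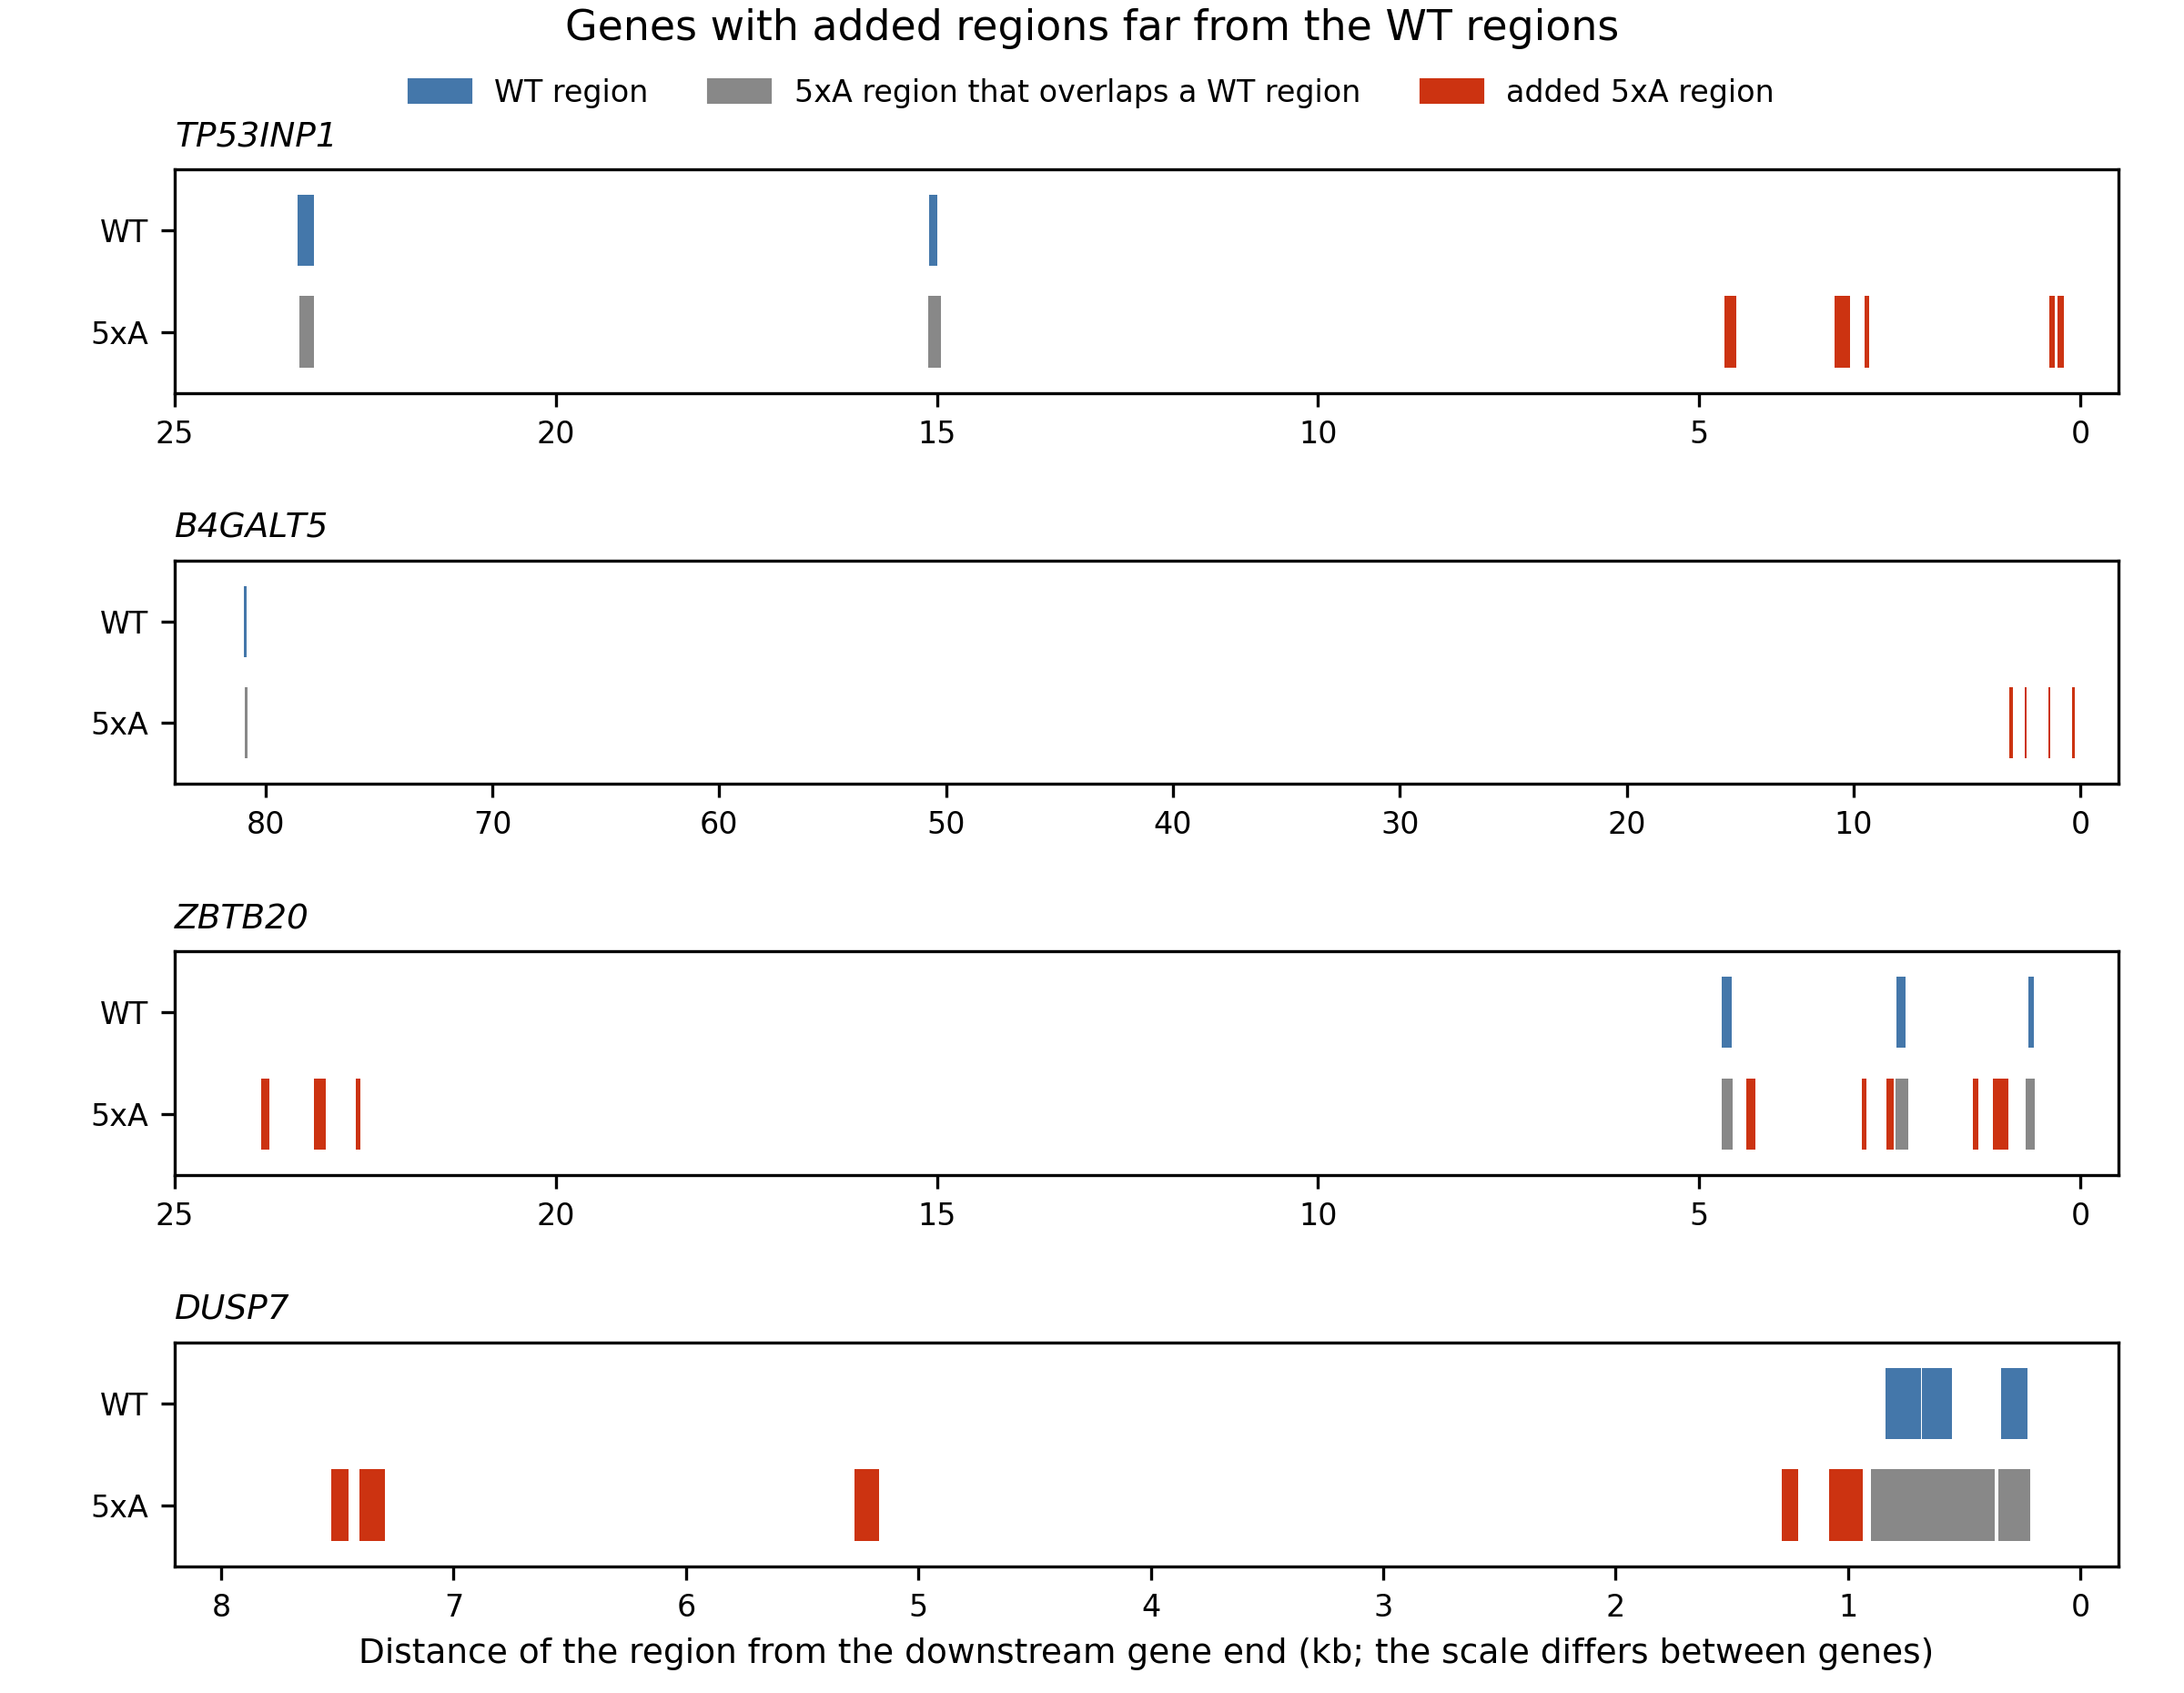
WT regions (blue, upper row), 5xA regions that overlap a WT region (grey) and added 5xA regions (red, lower row) by distance in kb from the downstream gene end (horizontal axis, with its own scale for each gene). In TP53INP1 and B4GALT5 the added regions lie near the gene end and the WT regions far upstream. In ZBTB20 3 of the 8 added regions lie upstream of the WT regions and 5 between them, and in DUSP7 all 5 lie upstream.

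A few sequences could be read, since 13 genes had at least 20 bases of an added region inside a RefSeq start window, either their own or that of an overlapping gene. These windows need not lie at the upstream end of the gene span, and in FBXW7, JPT1 and TET3 they did not. The parts inside them were searched for 7-base matches to seeds of mature miRNAs. Only miRNAs of which a region of either list covered at least 18 bases were used. With 41 seeds searched there were 8 matches in 4 genes. CTXN1 held GGGCGCC, the complement of bases 2 to 8 of miR-6789-3p. TET3 held 3 overlapping matches to miR-16-5p (TGCTGCT), all within a single run of the triplet TGC. JPT1 held 3 matches, of which those to miR-7-1-3p (ATTTGTT) and let-7a-2-3p (CTGTACA) lay in another of its regions. The JPT1 match to the let-7 seed and the MCL1 match were chosen for printing after they were seen. JPT1 held 1 WT and 3 added regions, and the one in its own start window (75154371 to 75154441, chromosome 17, minus strand) lay 19163 bases from the downstream gene end. It held CTACCTC, the complement of let-7 bases 2 to 8, shown in capitals within the 23 bases of chr17:75154403-75154425 (minus strand). MCL1, the gene of an antiapoptotic BCL2 protein, held 3 WT regions, all overlapped, and 1 added region 174 bases from the gene end. That region lay in the start window of ADAMTSL4-AS1 and held ATGCAGT, the complement of bases 2 to 8 of miR-6807-3p, at chr1:150574735-150574757 (minus strand).
JPT1: gcgccagcCTACCTCgctcctcg
MCL1: ggaaaaacATGCAGTcctctagt
On either strand, CTACCTC is in 3.13%, ATGCAGT in 2.74%, GGGCGCC in 11.5%, TGCTGCT in 7.95%, ATTTGTT in 4.20% and CTGTACA in 1.77% of the 35116 RefSeq start windows. Such shares are for whole windows and 1 site each, while mostly shorter parts were searched with 41 seeds. They are therefore not the chance of the 8 matches. These matches are descriptions of the sequence and do not show which miRNA, if any, was bound.

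**Figure D5:**
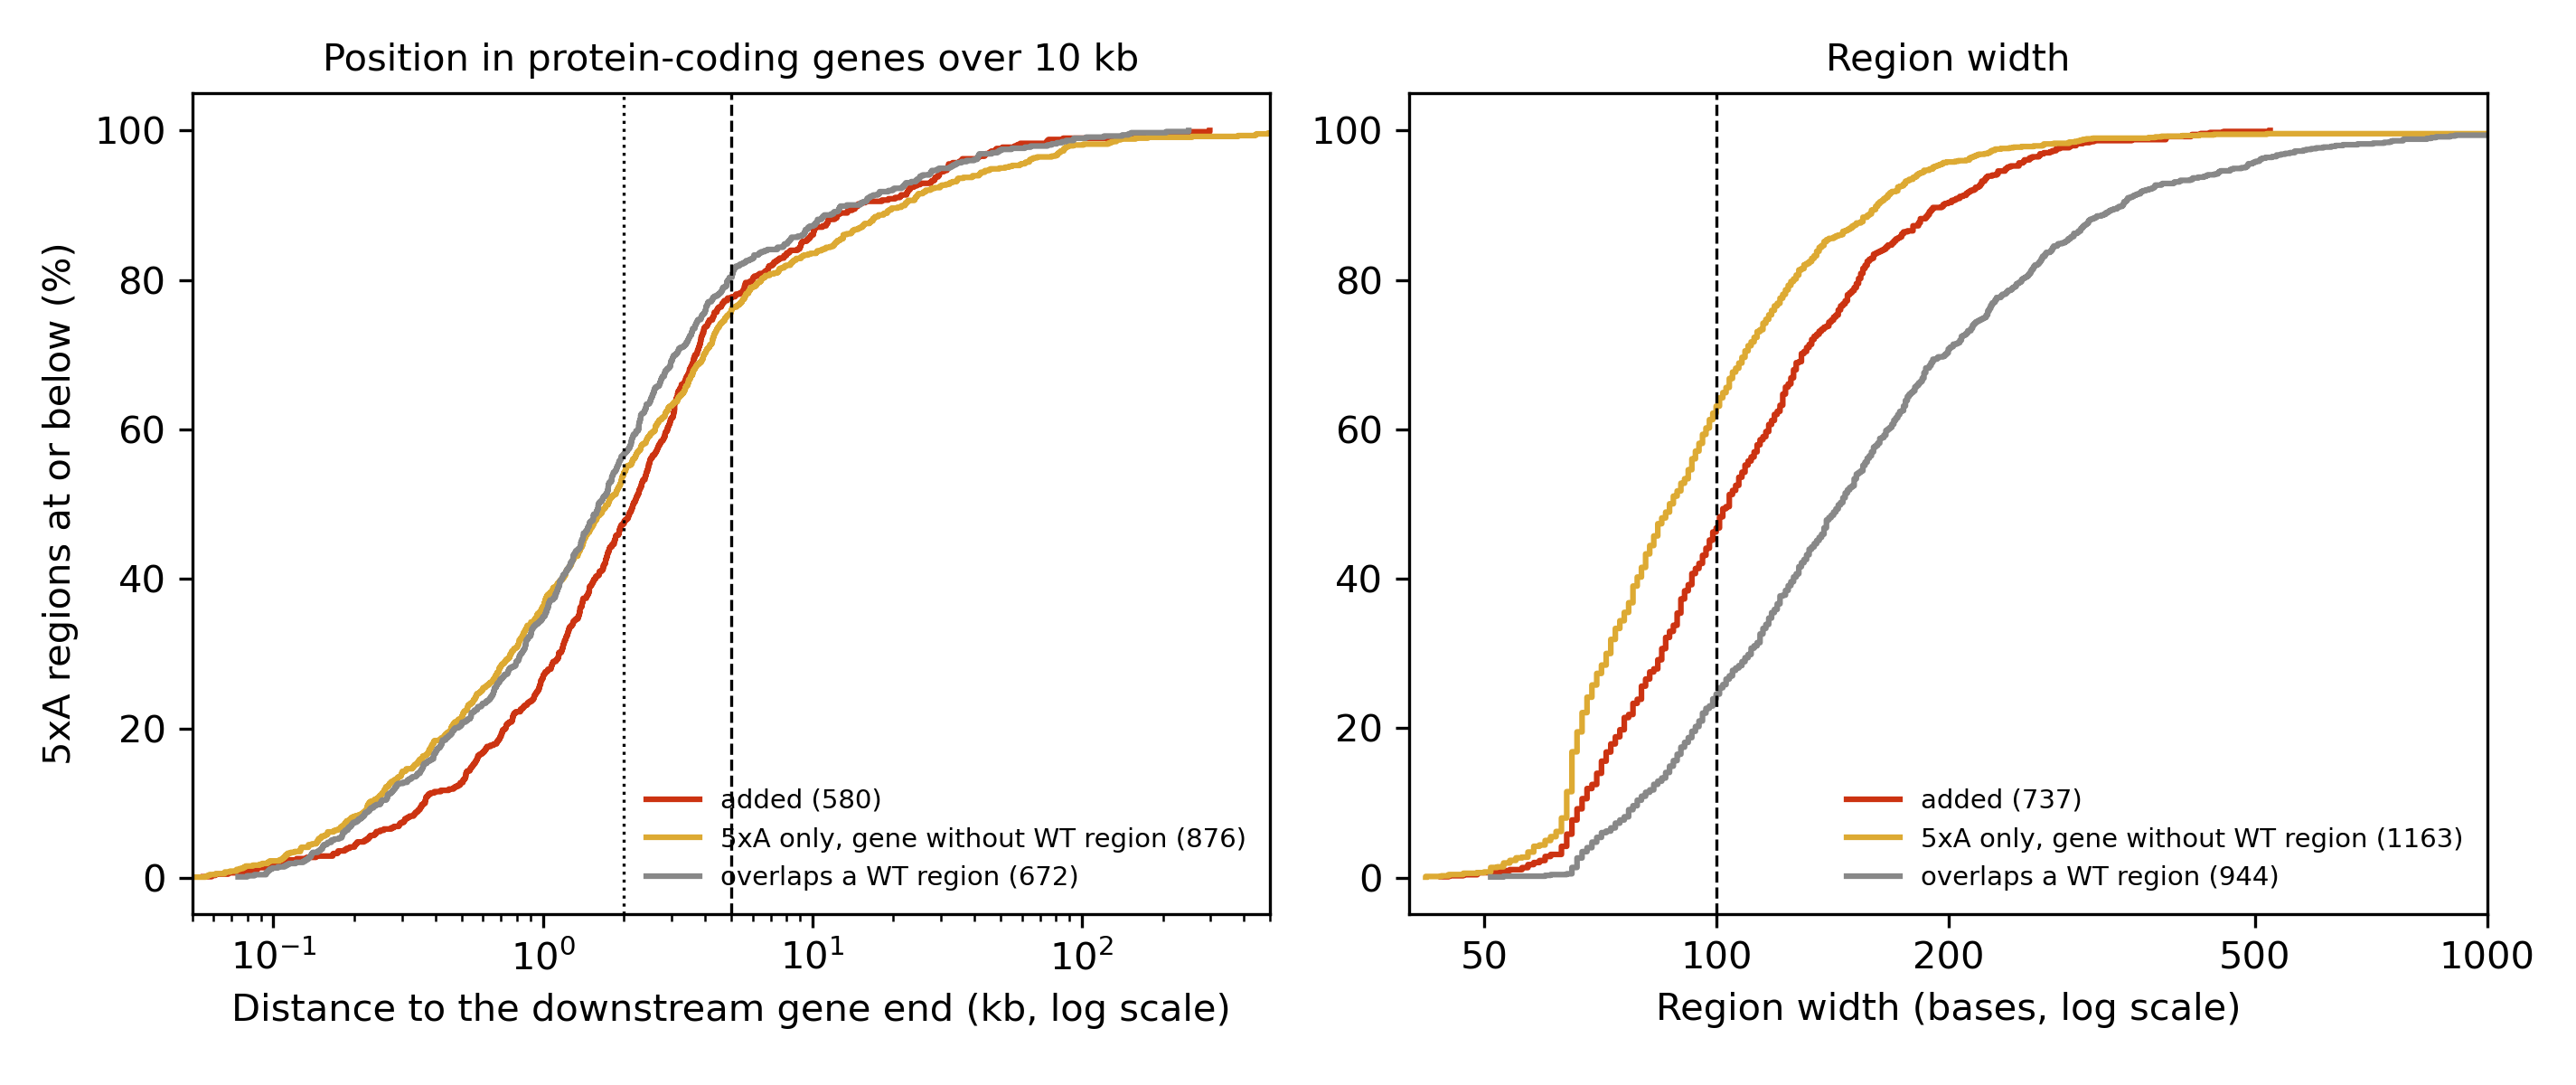
Cumulative percent of 5xA regions (vertical axes) by distance to the downstream gene end in protein-coding genes longer than 10 kb (left, kb, log scale, lines at 2 and 5 kb) and by width (right, bases, log scale, line at 100 bases), for added regions (red), 5xA-only regions of genes without a WT region (yellow) and regions that overlap a WT region (grey). The added regions lie between the other sets in width, and below both at 2 kb.

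Added regions were wider than the 5xA regions in genes without a WT region. The median width was 104 bases (quartiles 80 and 142), against 87 bases (69 and 117) for those 1163 regions. At least 100 bases were reached by 396 of 737 added regions (53.7%) and by 440 of 1163 (37.8%), a difference of 15.9 percentage points (95% interval 11.3 to 20.4), with an odds ratio of 1.91 (1.58 to 2.31; two-sided Fisher's exact test, Benjamini-Hochberg adjusted p = 3.32e-11 over 3 tests). The difference was 12.5 points when only genes with a single region of the set were counted, an alternative chosen after the data were seen (exact test, adjusted p = 0.00847). Shared 5xA regions were wider still, with a median of 145 bases, but overlap is more easily met by a wide region, so this was not tested. In 249 of 308 genes with both kinds (80.8%) the added regions were narrower on average than the shared ones. The widest added regions were in IER2 (523 bases), COL1A1 (455 and 384 bases), TRIB1 (437 bases), ARHGDIA (425 bases), BTG2 (414 bases) and SCD (413 bases). CTXN1 and MKNK2 (383 bases each) and GDF15 (346 bases) came next. Regions of a gene are not independent, and each p-value compares sets of regions within 1 list.

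In position, added regions lay toward the downstream gene end like the rest of the 5xA list, but fewer of them lay in the last 2 kb. In protein-coding genes over 10 kb, 77.6% of 580 added regions (74.0 to 80.9) had their midpoint within 5 kb of the end. The shares were 75.8% of 876 regions in genes without WT (difference 1.79 points, -2.70 to 6.14; adjusted p = 0.449, Fisher's exact test) and 80.4% of 672 shared regions (difference -2.77 points, -7.32 to 1.74; exact test, adjusted p = 0.355). Within 2 kb, an alternative window, the shares were 47.4%, 54.2% and 56.7%. The added regions were below both other sets (exact tests, adjusted p = 0.0118 and 0.00182 over the 3 tests of that setting). By definition they cannot lie on a WT region, and 56.7% of shared regions lay in these last 2 kb. Part of this deficit may therefore be set by the rule, and how much was not tested. The rule also places shared regions on WT positions, so the p-values against shared regions are not independent of it. With only the region nearest the end counted in each gene, the 5 kb share was 84.4% for added regions and 76.6% for genes without WT (exact test, adjusted p = 0.0124), but the nearest of several regions is taken more often in the set with more regions per gene. In genes that hold a single region of the set, an alternative chosen after the data were seen, the shares were 80.3% and 74.1% (difference 6.19 points, -2.33 to 13.3; exact test, adjusted p = 0.256). The comparison at the gene end therefore depends on the window and on how regions are counted. Within genes that held both kinds there was no common order: added regions lay farther from the end than shared ones in 111 of 234 genes and nearer in 123. Other alternatives that changed a call at 5 kb stand in the closing section.

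By role, the silencing machinery itself held added regions. Of its 8 listed genes in both lists 6 did, with 18 regions in all, beside 54.2% of all genes in both lists. These 6 genes held 21 WT regions. As given above, the share with added regions also differed by the number of WT regions, and its part here was not tested. TNRC6A, a GW182 scaffold gene, held 5 WT and 4 added regions, TNRC6C 3 and 3, and TNRC6B 1 and 2. DICER1, whose product cuts miRNA precursors, held 4 and 4, with all added regions between WT regions. GIGYF1, the gene of a translational repressor, held 5 and 4, and 1 of these lay 13 bases from a WT region that 5xA did not overlap. AGO2 held 3 WT regions and 1 added region, 10916 bases from its gene end. ANKRD52, of the phosphatase that acts on AGO2, held 10 WT regions, 9 overlapped, and 4 added ones.

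Of the reported let-7 targets, all 14 genes in both lists held an added region, 31 in all beside 42 WT regions, against 54.2% of all genes in both lists. As given above, the share with added regions also differed by the number of WT regions, and its part here was not tested. This list was chosen with earlier results of these data known, so it is no independent evidence, and no test was made. CDK6, the gene of a G1 kinase, held 1 WT and 4 added regions, and 1 of these lay 9893 bases from the gene end. The cell cycle phosphatase gene CDC25A held 1 and 3, and the transcription factor genes ARID3A and PLAGL2 held 3 and 4, and 3 and 3. MYC held 1 and 2. HMGA2, the gene of a chromatin protein, held 5 WT regions and only 1 added region of 169 bases, 2974 bases from the gene end. Of the miR-17 family targets 10 of 14 genes held added regions, led by ZBTB7A, TP53INP1, MKNK2 and ANKRD52, and of the miR-21 targets 4 of 4 did, led by BTG2 (6 WT and 3 added) and CDC25A.

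The counts of the other lists stand beside 351 of 648 genes (54.2%) over all genes in both lists, and several are near it. For these lists too, the part of the number of WT regions per gene was not tested. Of the p53 pathway genes 7 of 8 in both lists held added regions. MDM2, the ligase that degrades p53, held 5 WT and 4 added regions, and the CDK inhibitor gene CDKN1A 6 and 1. In the cell cycle list 7 of 10 did, with CDKN1B at 3 and 1. All 5 BCL2 family genes in both lists held added regions, 6 in all, with the proapoptotic BCL2L11 at 2 and 2, BBC3 at 4 and 1, and PMAIP1 at 1 and 1. The Wnt list had 4 of 5, led by BCL9L, a beta-catenin coactivator gene with 1 WT region, not overlapped, and 3 added regions. The TGF-beta and BMP list had 3 of 6 and the RAS-ERK and PI3K list 4 of 7, with the EGFR ligand gene EREG at 1 and 3. In the Polycomb and H3K27 list 5 of 7 genes held added regions, with the demethylase gene KDM6B at 7 and 2, and in the ZBTB list 8 of 10 did. The TET and DNA methylation list had 2 of 3, with TET1 at 2 and 1. The CCCH zinc finger list had 4 of 5, with ZC3HAV1L at 7 and 3 and ZFP36L1 at 4 and 2. Nuclear factor I genes had 1 of 2 and the epithelial-mesenchymal transition list 3 of 3. Of 25 housekeeping genes 4 were in both lists and 1 held added regions (FTL, 2), and of 35 ribosomal protein genes 1 was in both lists and it held none. Of the marker lists for other cell types, the fibroblast list had COL1A1 with 2 WT and 2 added regions and the blood list had none, and the colorectal list, for the cells' own tissue, had no gene with an added region.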

How the data were processed

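Per the labels, the authors deposited 1 merged region list for both FH-AGO2_WT IP replicates and 1 for both FH-AGO2_5xA replicates. The submitters' processing notes name hg38, TopHat2 and cutadapt 1.9.1. The labels used here do not state the peak caller, its threshold, how knockout and input libraries were used or how replicates were merged. The deposited score is 0 in every region and was not used. Regions were compared in Python 3.11.15, and the 1977 5xA regions without overlap were checked with bedtools 2.31.1. A region went to the protein-coding gene it overlapped in the RefSeq table of GRCh38.p14, failing that to a lncRNA gene and last to any other type, and among several to the one of shortest span. Strand was not used in assigning genes, so a WT region on the other strand could make a gene count as bound. Of the 588 added regions whose gene strand is known, 581 lay on it, and for 149 the gene strand is not known. Exons were not used, so 3' UTRs, coding sequence and introns were not told apart, and seed matches over all regions, which were planned, were not run. Shares have exact Clopper-Pearson intervals, differences have Newcombe intervals, and both cover counting error only. Fisher's exact tests, two-sided, were made in scipy 1.17.1. The sorting of regions into sets and the 5 kb position test were tried on simulated data, with plus-strand regions of a single width only. Widths and gaps were not checked in this way. Members and all 22 gene lists were chosen with earlier results of these data known. Genes named were the 25 with most added regions, all in the silencing and AGO2 phosphorylation lists, up to 4 of each other list, the 10 widest regions, those at small RNA genes, those nearest and farthest from WT and genes with no WT region overlapped. Further genes were named after their values were seen.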

Additional observations from a re-analysis of the deposited data

How the results depend on the processing

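The number of added regions stayed within 583 to 880 and their genes within 320 to 392 over all alternatives, with opposite-strand genes left out as an alternative chosen after seeing the data. Ignoring strand changed no value. The share of genes with more than 1 added region (51.6%) was 58.2% with a reciprocal overlap of 50% and 43.8% with regions within 50 bases joined. The share within 1 kb of a WT region (71.9%) was 76.5% and 66.2% under these, and 68.2% when a gap of up to 50 bases counted as shared, which removes the closest regions. The width difference from shared regions (-22.3 points at 100 bases) was -15.8 with reciprocal overlap and -8.76 with 1 region per gene. The width difference from genes without WT kept its call in all alternatives (8.64 to 25.5 points; exact tests, adjusted p from 2.73e-20 to 0.00847). The 25.5 points came with 1 region per gene, where the widest was kept, which favours the set with more regions per gene. The 5 kb difference from genes without WT (1.79 points) was -0.213 with the 50-base gap, -1.42 with joined regions, -1.05 with regions on a single gene, -0.257 with opposite-strand genes left out, -6.81 in a 2 kb window and 7.79 with 1 region per gene, and the last 2 passed the test (exact tests, adjusted p = 0.0118 and 0.0124). In genes that hold a single region of the set, chosen after seeing the data, it was 6.19 points and did not pass (exact test, adjusted p = 0.256). That from shared regions (-2.77 points) was -5.90 with the 50-base gap, -5.81 with joined regions, -5.37 with regions on a single gene, -9.28 in a 2 kb window and 1.79 with 1 region per gene, and the first 4 passed the test (exact tests, adjusted p from 0.00182 to 0.0409). The cause was not tested, and the rule itself keeps added regions off WT positions. No paired analysis was possible because each list pools both replicates, and for the same reason no replicate could be left out. The depth behind the lists is unknown, so a position absent from the WT list may be below its threshold.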
